A study of Mus musculus with 4 samples.

Results

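The 38 genes described here encode the mitotic kinases, the cyclins that drive entry into mitosis, the spindle checkpoint and the machinery that separates chromosomes and cells. They were taken by gene symbol: a gene counted as measured where a probe set carried its symbol alone, and, of several, the one with the highest average level across all arrays was used. Of the 38 genes, 37 were measured, out of 19937 genes in all. Cyclin B1 (Ccnb1) had no such probe set and is not analysed here.

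The arrays compared gliomas of C57/Bl6 mice at different stages of progression. Embryos had been injected at embryonic day 14 with a retrovirus that expressed PDGF-B, a growth factor for glial progenitors, together with EGFP, and the pups were followed until symptoms appeared. EGFP-positive cells were then sorted from the dissociated tumours, so all samples carried the same virus, the same overexpression of PDGF-B and EGFP, and the same gate. The late-onset group, labelled high-grade, held 2 arrays, each from 1 tumour, here tumour 1 and tumour 2. The early-onset group, labelled low-grade, held 2 arrays, each from a pool of cells of 2 tumours, here pool 1 and pool 2, so the spread between pools is already averaged over animals. The labels call the arrays of a group biological replicates, and they give no age or grading criterion.

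Mitosis is started when cyclin-dependent kinase 1 (Cdk1), bound to A- and B-type cyclins, is released from inhibition by the Cdc25 phosphatases. Polo-like and Aurora kinases then build the spindle, while the spindle checkpoint holds the anaphase-promoting complex (APC/C) until every chromosome is attached. The APC/C, with its activator Cdc20, then marks securin and the cyclins for destruction. Most of these genes are transcribed in G2 and M phase through a promoter element called the CHR (cell cycle genes homology region), which MuvB complexes bind with the factors B-Myb (Mybl2) and Foxm1, and through CCAAT boxes, which bind NF-Y. In a bulk sample a higher level of such a transcript can come from more cycling cells or from more RNA per cell, which cannot be told apart here.

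The promoters of these genes share letters that the choice of genes did not use. The RefSeq table (GRCm38.p6), which holds 250 bases before and 50 after each annotated start, had 35 windows for 32 of the 38 genes. The CHR letters TTTGAA were searched on both strands, as was CCAAT, and neither motif contains the other. TTTGAA lay in 22 of the 35 windows (62.9%), against 17.9% of all 32851 windows in the table and 14.8% of the windows of measured genes. CCAAT lay in 27 (77.1%), against 37.4% of all windows, and both lay in 21 (60%), against 6.95% of all windows. The stretches of 120 bases that end just before the start are shown for 5 genes picked by hand among those with both motifs there. They are also shown for Nek2, which had the highest log2 fold change of the 37, and for Fzr1, which had the lowest. Ccnf, Espl1, Top2a and Ect2 also held both motifs in these bases and are not shown. Each is written 5′ to 3′ on the strand of the gene, and capitals mark TTTGAA and CCAAT or their reverse complements, TTCAAA and ATTGG. They lie at chr10:69352913-69353032 on the minus strand (Cdk1), chr4:118437344-118437463 on the minus strand (Cdc20), chr2:164769809-164769928 on the plus strand (Ube2c), chr7:80294356-80294475 on the plus strand (Prc1), chr7:131560250-131560369 on the plus strand (Bub3), chr1:191821353-191821472 on the plus strand (Nek2) and chr10:81378371-81378490 on the minus strand (Fzr1).
Cdk1: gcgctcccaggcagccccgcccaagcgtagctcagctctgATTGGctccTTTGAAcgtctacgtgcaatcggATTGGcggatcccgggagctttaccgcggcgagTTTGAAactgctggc
Cdc20: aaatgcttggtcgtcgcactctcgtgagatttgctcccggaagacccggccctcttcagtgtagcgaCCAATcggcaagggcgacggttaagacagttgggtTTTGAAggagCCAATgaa
Ube2c: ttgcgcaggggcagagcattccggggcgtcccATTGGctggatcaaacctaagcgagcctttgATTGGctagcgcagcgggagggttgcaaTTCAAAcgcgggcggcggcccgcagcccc
Prc1: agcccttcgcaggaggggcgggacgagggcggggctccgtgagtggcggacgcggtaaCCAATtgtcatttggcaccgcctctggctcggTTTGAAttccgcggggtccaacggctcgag
Bub3: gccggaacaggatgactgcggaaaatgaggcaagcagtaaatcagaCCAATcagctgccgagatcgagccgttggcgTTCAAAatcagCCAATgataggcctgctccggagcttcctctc
Nek2: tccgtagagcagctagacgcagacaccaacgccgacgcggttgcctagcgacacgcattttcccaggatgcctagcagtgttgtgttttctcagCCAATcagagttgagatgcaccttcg
Fzr1: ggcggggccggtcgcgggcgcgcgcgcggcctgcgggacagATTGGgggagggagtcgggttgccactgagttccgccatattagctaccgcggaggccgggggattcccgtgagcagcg

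Prc1 and Bub3 have 2 annotated starts each, and the start with more CHR letters in the 120 bases before it was shown. From the other start the CHR letters lay at -5 in Prc1 and at -167 in Bub3. In the stretches shown the CHR letters began 15 bases before the start in Cdk1, 18 in Cdc20, 29 in Ube2c, 30 in Prc1 and 43 in Bub3. The nearest CCAAT letters upstream of those CHR letters began 33, 35, 28, 32 and 31 bases before them, in the same order of genes. These genes were picked by hand, and not all genes with both motifs in these bases had a similar spacing. Among those not shown, Top2a did, with CHR letters at -23 and CCAAT letters at -58. The positions were -27 and -44 in Espl1 and -14 and -107 in Ccnf. In Ect2 no CCAAT letters lay upstream of the CHR letters at -114 within the window. A second CHR match in Cdk1, 71 bases before the start, had CCAAT letters 9 bases upstream. Nek2 and Fzr1 held CCAAT but no TTTGAA in these bases. A match describes the letters only and is no evidence that a factor binds there.

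**Figure D1:**
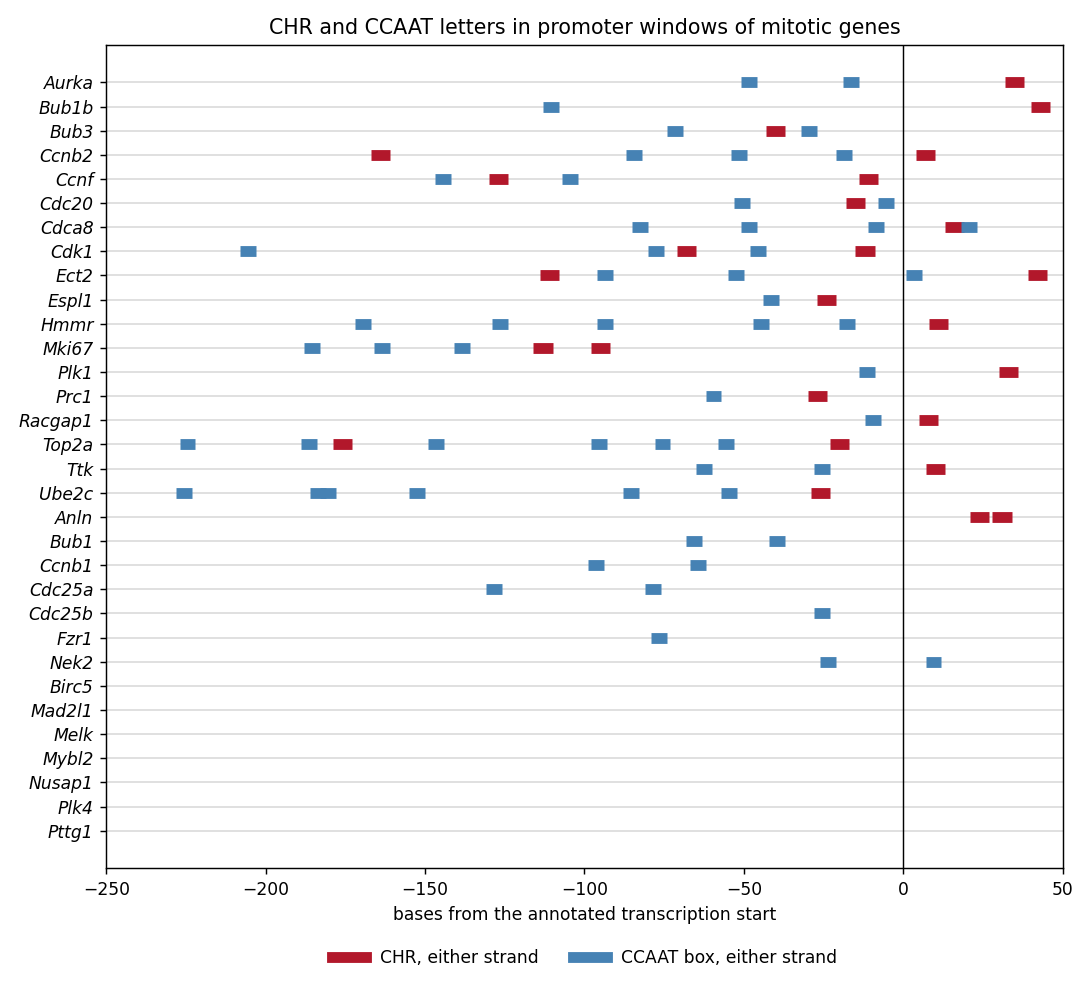
Positions of the CHR letters (red) and CCAAT letters (blue), on either strand, in 1 promoter window per gene for 32 mitotic genes. The x axis gives bases from the annotated start, and genes with both motifs are at the top. For the 3 genes with 2 windows, the window with more CHR letters in the 120 bases before the start is drawn. The CHR letters were found in 19 of the 32 genes and both motifs in 18.

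Mitotic genes were higher in late-onset cells almost throughout. By limma, 34 of the 37 measured genes rose in late-onset cells at an adjusted p under 0.05, against 6.59% of all genes called higher. None of the 37 was called lower, against 8.12% of all genes. At an unadjusted p under 0.05 none was lower either, against 3067 of all 19937 genes, and all 37 log2 fold changes were above 0. The median log2 fold change was 1.02, a 2.02-fold higher level, with a range of 0.30 to 1.80, against a median of -0.01 over all genes. At an adjusted p under 0.01, 18 were called higher, against 1.45% of all genes. At least a 2-fold rise was measured in 19 of the 37, against 2.13% of all genes. In each of the 37 both tumours lay above both pools, as they did in 28.5% of all genes.

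Which array was left out changed the number of calls. No direction changed, and none could, since both tumours lay above both pools in all 37 genes. Without pool 1, 13 of the 37 were called higher, and without pool 2, 25, with the remaining pool assumed to vary like the tumours. Without tumour 1 the number was 29 and without tumour 2 it was 27. Of all 19937 genes, 330 were called higher without pool 1, 291 without pool 2, 1212 without tumour 1 and 917 without tumour 2. Of the 34 called genes, 12 kept their call whichever array was left out: Aurka, Bub1, Bub1b, Cdc25a, Hmmr, Nusap1, Nek2, Melk, Plk4, Tpx2, Incenp and Cdca8. The median over the 37 genes stayed between 0.91 and 1.10 in these fits. Over all genes 1313 were called higher and 1618 lower. These counts were 2839 and 1210 once each array's median was subtracted, which moved the median of all genes to 0.15 and that of the mitotic genes to 1.18. Cdc25b (adjusted p 0.0199) and Pttg1 (0.0362) were then called as well.

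**Figure D2:**
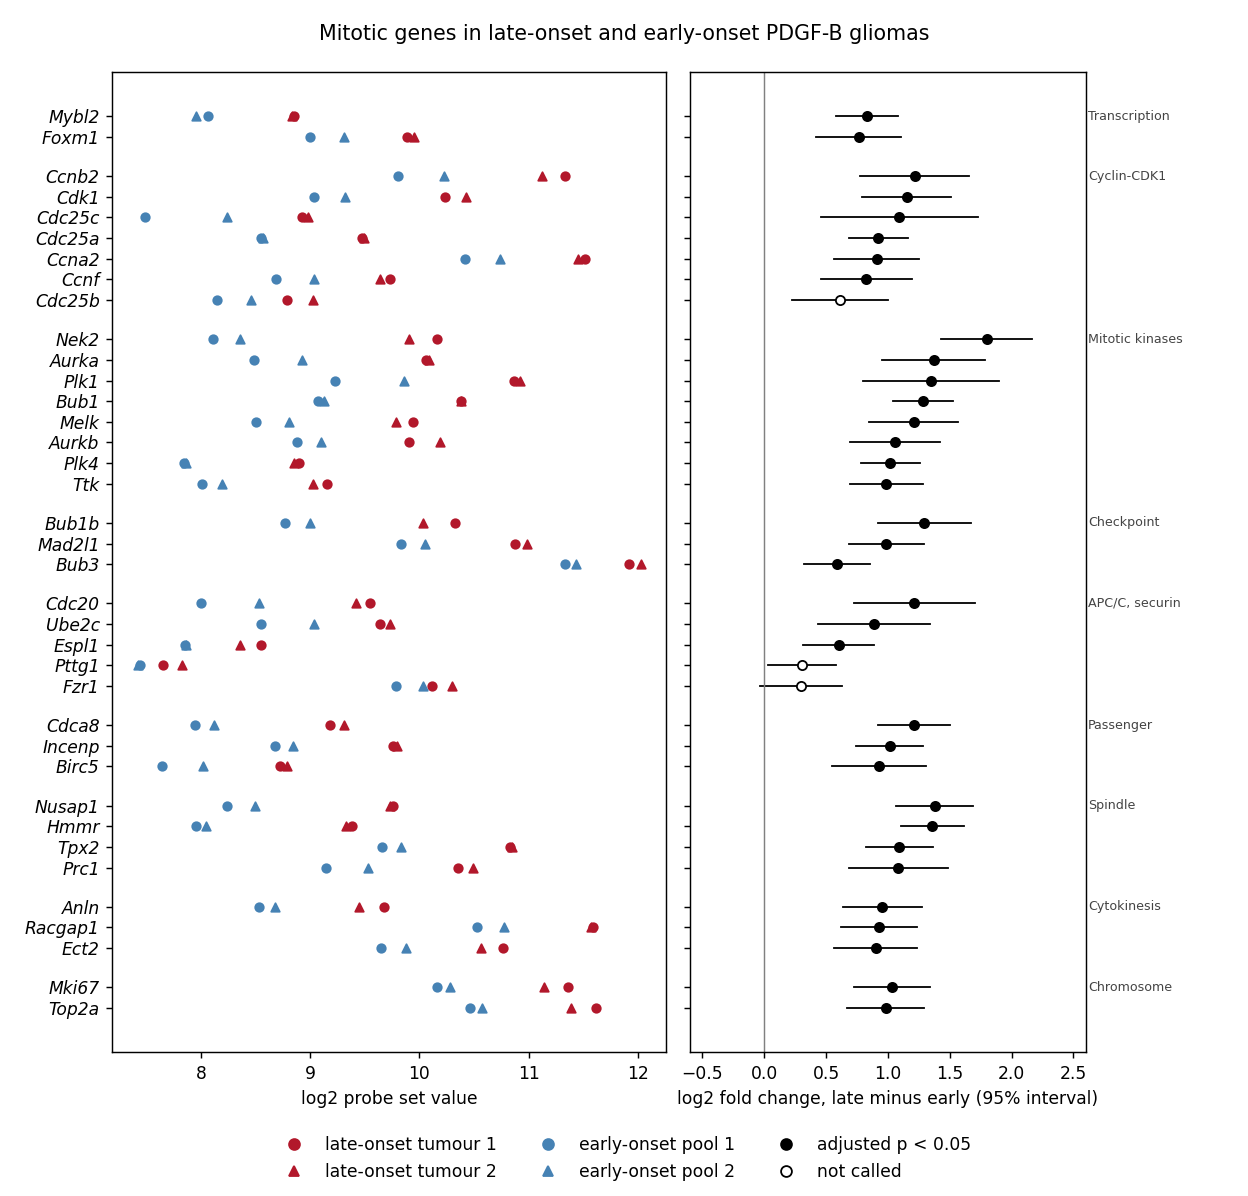
Left, the log2 probe set value of each measured mitotic gene in late-onset tumours (red) and early-onset pools (blue), with circles for replicate 1 and triangles for replicate 2. Right, the log2 fold change (late minus early) with its 95% interval from limma, filled where the adjusted p was under 0.05. In every row the red symbols lie right of the blue ones, and the open points are Cdc25b, Pttg1 and Fzr1.

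Both transcription factors that act through these promoters rose. Mybl2, which encodes B-Myb, stood at log2 values of 8.85 and 8.83 in the tumours, against 8.06 and 7.96 in the pools. Its log2 fold change was 0.83 (SE 0.10, adjusted p 0.00871). Foxm1, a forkhead factor for late cell cycle genes, stood at 9.89 and 9.95 in the tumours, against 9.00 and 9.31 in the pools. Its log2 fold change was 0.76 (SE 0.14, adjusted p 0.0234). The spread between pools was wider for Foxm1, whose call was lost whichever array was left out (adjusted p 0.05001 to 0.103). The Mybl2 call was lost without pool 1 (0.0504) or pool 2 (0.0665).

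Cdk1 and the 3 measured cyclin family genes of the list rose by 0.83 to 1.22 on the log2 scale. Cdk1 stood at 10.23 and 10.43 in the tumours, against 9.04 and 9.32 in the pools, a log2 fold change of 1.15 (SE 0.14, adjusted p 0.00931). Ccnb2, the measured B-type cyclin, stood at 11.34 and 11.12 in the tumours, against 9.80 and 10.23 in the pools, a log2 fold change of 1.22 (SE 0.17, adjusted p 0.0133). Ccna2, the cyclin of S and G2 phase, rose by 0.91 (SE 0.14), and Ccnf, a substrate receptor of an SCF ubiquitin ligase, by 0.83 (SE 0.15). Without pool 1 the adjusted p was 0.0507 for Cdk1, 0.0536 for Ccnb2, 0.0681 for Ccna2 and 0.0929 for Ccnf. The Ccnf call was also lost without tumour 1 (0.0604) or tumour 2 (0.0523).

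The 3 Cdc25 phosphatases, which remove the inhibitory phosphates from cyclin-dependent kinases, differed in how firmly they were measured. Cdc25a, which also acts at the start of S phase, stood at 9.47 and 9.49 in the tumours, against 8.55 and 8.57 in the pools, a log2 fold change of 0.92 (SE 0.09, adjusted p 0.00618). Cdc25c stood at 8.92 and 8.98 in the tumours, against 7.48 and 8.24 in the pools, a log2 fold change of 1.09 (SE 0.25, adjusted p 0.0464). Cdc25b stood at 8.79 and 9.03 in the tumours, against 8.14 and 8.45 in the pools. Its log2 fold change of 0.61 (95% interval 0.22 to 1.00) was not called, with an adjusted p of 0.0578. The Cdc25a arrays of a group nearly coincided, whereas the Cdc25c pools differed by 0.75, the widest gap between pools of the 37 genes. The Cdc25c call was lost without pool 1 (0.0742), tumour 1 (0.094) or tumour 2 (0.118) and with array weights (0.0561). Among genes above the median level alone, Cdc25b passed (0.0414).

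All 8 kinases of the list rose, with log2 fold changes from 0.99 to 1.80. Nek2, which splits centrosomes before the spindle forms, stood at 10.16 and 9.90 in the tumours, against 8.11 and 8.36 in the pools. Its log2 fold change of 1.80 (SE 0.15, adjusted p 0.00372), a 3.48-fold rise, was the highest of the 37, and 72 of all genes had a higher one. Nek2 lies on chromosome 1, where the median gene above the median level stood 0.40 lower in tumour 2 than in tumour 1. The median log2 fold change (late minus early) of these chromosome 1 genes was 0.24, against 0.10 on chromosome 10, the next highest. Nek2 itself stood 0.26 lower in tumour 2 than in tumour 1. Without tumour 1 its log2 fold change was 1.67, and whether the chromosome contributes to it was not tested.

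Aurka, the Aurora kinase of spindle poles, stood at 10.06 and 10.08 in the tumours, against 8.48 and 8.92 in the pools, a log2 fold change of 1.37 (SE 0.17, adjusted p 0.00886). Plk1, the polo-like kinase that acts from mitotic entry to cytokinesis, stood at 10.86 and 10.92 in the tumours, against 9.23 and 9.86 in the pools, a log2 fold change of 1.35 (SE 0.22, adjusted p 0.0182). For both the tumours lay close together and the pools apart, and the Plk1 call was lost without tumour 2 (0.0532). Bub1, a checkpoint kinase of the kinetochore, stood at 10.38 in each tumour, against 9.07 and 9.12 in the pools, and rose by 1.28 (SE 0.10, adjusted p 0.0032). Melk (1.21), a kinase with a mitotic peak of expression, Aurkb (1.06), the kinase of the chromosomal passenger complex, Plk4 (1.02), which starts centriole duplication, and Ttk (0.99), the checkpoint kinase also known as Mps1, completed the kinases. The Aurkb call was lost without pool 1 (0.0698) or pool 2 (0.0509), and the Ttk call without pool 1 (0.0545).

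Of the other checkpoint proteins, which build the inhibitor of the APC/C, all 3 rose. Bub1b, which encodes BubR1, stood at 10.32 and 10.03 in the tumours, against 8.77 and 9.00 in the pools, a log2 fold change of 1.29 (SE 0.15, adjusted p 0.00799). Mad2l1, which encodes Mad2, rose by 0.99 (SE 0.12, adjusted p 0.00914). Bub3, a partner of Bub1 and BubR1 that is also made outside mitosis, stood at 11.92 and 12.03 in the tumours, against 11.33 and 11.43 in the pools, and rose by 0.59 (SE 0.11, adjusted p 0.0238). The 95% interval for Bub3 (0.32 to 0.86) lay below that for Bub1b (0.92 to 1.67), though the difference between them was not tested. The Bub3 call was lost without pool 1 (0.139), pool 2 (0.11) or tumour 2 (0.0685), and the Mad2l1 call without pool 1 (0.0555).

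Of the 5 genes of anaphase, 3 rose. The APC/C activators were Cdc20, which acts in mitosis, and Fzr1 (Cdh1), which acts from mitotic exit through G1. Cdc20 stood at 9.55 and 9.42 in the tumours, against 8.00 and 8.54 in the pools, a log2 fold change of 1.21 (SE 0.19, adjusted p 0.0178). Fzr1 stood at 10.12 and 10.30 in the tumours, against 9.79 and 10.03 in the pools, a log2 fold change of 0.30 (95% interval -0.04 to 0.63, adjusted p 0.209). The Fzr1 groups did not overlap, but tumour 1 was only slightly above pool 2, and the interval of Cdc20 (0.72 to 1.70) lay above that of Fzr1. The difference between the activators was not tested.

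Ube2c, the ubiquitin-conjugating enzyme of the APC/C, rose by 0.89 (SE 0.18, adjusted p 0.0327). Espl1, which encodes separase, the protease that opens cohesin rings, stood at 8.55 and 8.36 in the tumours, against 7.85 and 7.86 in the pools, and rose by 0.60 (SE 0.11, adjusted p 0.0266). Pttg1, which encodes securin, the inhibitor of separase, stood at 7.65 and 7.82 in the tumours, against 7.44 and 7.42 in the pools. Its log2 fold change of 0.31 (95% interval 0.03 to 0.58) was not called, with an adjusted p of 0.132. Its interval excludes a 2-fold rise, the size of the list's median. Without pool 1 the adjusted p was 0.0504 for Cdc20, 0.0936 for Ube2c and 0.135 for Espl1. The Ube2c call was also lost without tumour 1 (0.0661) or tumour 2 (0.0917), and the Espl1 call without pool 2 (0.147) or tumour 1 (0.0618).

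The chromosomal passenger complex, which carries Aurora B to centromeres and then to the midzone, rose in each of its 3 other subunits. Cdca8 (borealin) stood at 9.18 and 9.31 in the tumours, against 7.94 and 8.12 in the pools, a log2 fold change of 1.21 (SE 0.12, adjusted p 0.00537). Incenp, the scaffold, rose by 1.02 (SE 0.11, adjusted p 0.00651), and Birc5 (survivin) by 0.92 (SE 0.15, adjusted p 0.0186). With Aurkb at 1.06, the complex's 4 genes lay within 0.92 to 1.21. The Birc5 call was lost without pool 1 (0.0705) or tumour 2 (0.0542).

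The 4 spindle genes rose by 1.09 to 1.38. Nusap1, a microtubule-binding protein of the spindle, stood at 9.75 and 9.73 in the tumours, against 8.23 and 8.49 in the pools, a log2 fold change of 1.38 (SE 0.12, adjusted p 0.00463). Hmmr, a spindle and hyaluronan-binding protein, stood at 9.38 and 9.33 in the tumours, against 7.95 and 8.05 in the pools, a log2 fold change of 1.36 (SE 0.10) and, at 0.00317, the lowest adjusted p of the 37. Tpx2, the activator of Aurora A, rose by 1.09 (SE 0.11), and Prc1, which bundles midzone microtubules, by 1.09 (SE 0.16). The Prc1 call was lost without pool 1 (0.0563).

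The 3 cytokinesis genes rose by similar amounts. Anln (anillin), the scaffold of the contractile ring, rose by 0.96 (SE 0.13), Racgap1, a subunit of centralspindlin, by 0.92 (SE 0.12), and Ect2, the exchange factor that activates RhoA, by 0.90 (SE 0.13). Mki67, which encodes the proliferation marker Ki-67, stood at 11.36 and 11.14 in the tumours, against 10.16 and 10.28 in the pools, a log2 fold change of 1.03 (SE 0.12, adjusted p 0.00853). Top2a, the topoisomerase that untangles sister chromatids, rose by 0.98 (SE 0.12), and its second, dimmer probe set stood at 1.36. Without pool 1 these 5 calls were lost (adjusted p 0.0582 for Mki67, 0.0597 for Racgap1, 0.064 for Top2a, 0.0709 for Anln and 0.08 for Ect2). Without pool 2 they were lost for Mki67 (0.0501), Ect2 (0.0533), Top2a (0.0551) and Anln (0.0563).

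Related genes that are not on the list were compared in the same fit, and differences between the lists were not tested. Of all genes, 6.59% were called higher and 8.12% lower. Of 25 other G2/M genes, 20 rose, at a median log2 fold change of 0.95, led by Depdc1a (1.67), Dlgap5 (1.50), a spindle assembly factor, the kinetochore motor gene Cenpe (1.36) and Depdc1b (1.26). None of the 25 fell, and at an unadjusted p under 0.05 limma gave 22 higher and 2 lower. Of all 19937 genes, 2900 were higher and 3067 lower at that threshold. Of 9 measured partners of the checkpoint, 7 rose (median 0.88), led by Trip13 (1.29), which recycles Mad2, the cohesin protector gene Sgo1 (1.26), Spdl1 (1.02) and the kinetochore scaffold gene Knl1 (0.95). Of 17 genes of the entry switch, 8 rose (median 0.55), led by the CDK subunit genes Cks1b (1.73) and Cks2 (1.27), the APC/C inhibitor gene Fbxo5 (1.05) and the polo kinase cofactor gene Bora (0.97).

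Of 15 genes of the complex and its ubiquitin chain elongating enzyme, 5 rose, at a median of 0.12: Ube2s (0.81), Cdc16 (0.70), Anapc4 (0.57), Anapc15 (0.55) and Cdc27 (0.47), of which Cdc27 was chosen after its value was seen. Of 12 genes of the MuvB and DREAM complexes, 3 rose, at a median of 0.25: Lin9 (1.24), Mybl1 (1.07) and Rbl1 (0.71). For comparison, 6.59% of all genes were called higher. Lin9 and Mybl1 lie on chromosome 1 and stood 0.54 and 0.73 lower in tumour 2 than in tumour 1. In both of these lists none fell, with 0 and 1 lower at an unadjusted p under 0.05. The 1 lower gene was Rbl2 (-0.47), a pocket protein of DREAM named after its value was seen, which was called lower among genes above the median level alone (adjusted p 0.0465) and without tumour 1 (0.047). Of the other G2/M genes, Cit (-0.37), also named after its value was seen, was called lower among genes above the median level alone (0.0498).

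These counts changed with the array left out. Without pool 1 the genes called higher were 5 of 25 other G2/M genes, 2 of 9 checkpoint partners, 1 of 17 entry genes, and 0 of the APC/C and MuvB lists. Without pool 2 they were 15, 3, 3, 0 and 0. Over all 19937 genes 330 were called higher without pool 1 and 291 without pool 2. With all arrays, 6 of the 15 APC/C genes and 6 of the 12 MuvB genes were higher at an unadjusted p under 0.05 by limma, against 2900 of all 19937 genes. Without pool 1 and pool 2 in turn the medians moved little, to 0.82 and 1.13 for the other G2/M genes and to 0.10 and 0.14 for the APC/C. Without tumour 2, 2 of the 15 APC/C genes were called higher.

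**Figure D3:**
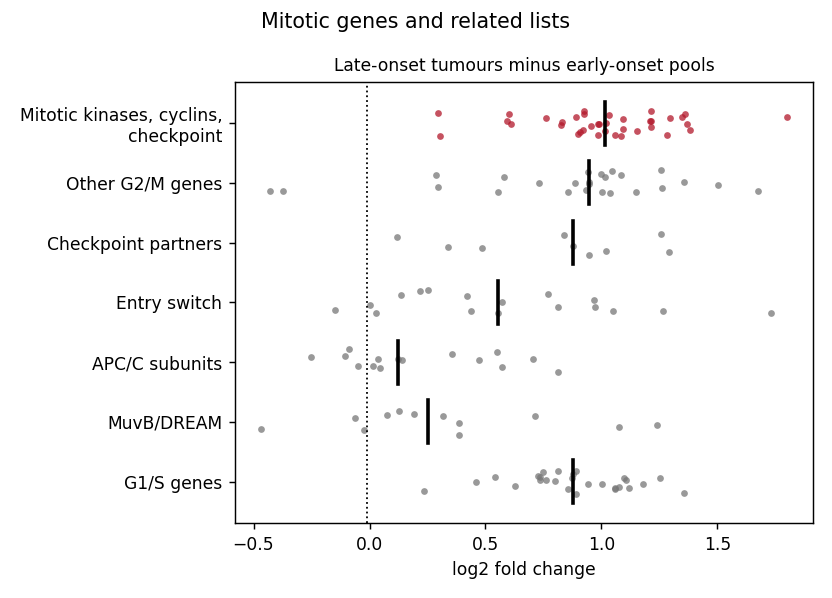
Log2 fold change (late-onset tumours minus early-onset pools) of each measured gene in the mitotic list (red) and 6 related lists (grey). Black bars are list medians and the dotted line is the median of all genes. The mitotic, other G2/M, checkpoint partner and G1/S lists have medians from 0.88 to 1.02, and the APC/C and MuvB/DREAM lists lie at 0.12 and 0.25.

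Genes of G1 and S phase also rose, but they differed from the mitotic genes between the pools. Of 27 measured G1/S genes, 23 rose and none fell, also at an unadjusted p under 0.05, and the list's median was 0.88. Among all genes, 6.59% were called higher and 8.12% lower. The highest log2 fold changes were those of the chromatin assembly gene Chaf1b (1.36), the helicase subunit gene Mcm3 (1.25), the ribonucleotide reductase gene Rrm2 (1.18) and the clamp loader gene Rfc4 (1.12). Mcm3 lies on chromosome 1 and stood 0.61 lower in tumour 2 than in tumour 1. Without pool 1, 12 were called and without pool 2, 4. Between the pools, 35 of the 37 mitotic genes were higher in pool 2 than in pool 1, as were 53.5% of all genes, at a median difference of 0.23 on the log2 scale. Of the 25 other G2/M genes, 23 were higher in pool 2 (median 0.27). Of the 27 G1/S genes, 26 were lower in pool 2, as were 46.3% of all genes, at a median of -0.24. So pool 1 held the lower level of mitotic transcripts and the higher level of S phase transcripts, and the genes within each list share these 2 arrays.

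Within the mitotic list the pool difference was graded. It was widest in Cdc25c (0.75), Plk1 (0.63), Cdc20 (0.53), Ube2c (0.49), Aurka (0.44) and Ccnb2 (0.42). It was under 0.05 in Cdc25a (0.02), Plk4 (0.02), Espl1 (0.01) and Bub1 (0.0491), and below 0 in Mybl2 (-0.11) and Pttg1 (-0.03). Between the tumours, 19 of the 37 were higher in tumour 2, as were 50.5% of all genes, the median difference was 0.00, and the differences ran from -0.29 (Bub1b) to 0.28 (Aurkb). The differences within a group have no replicate and were not tested.

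**Figure D4:**
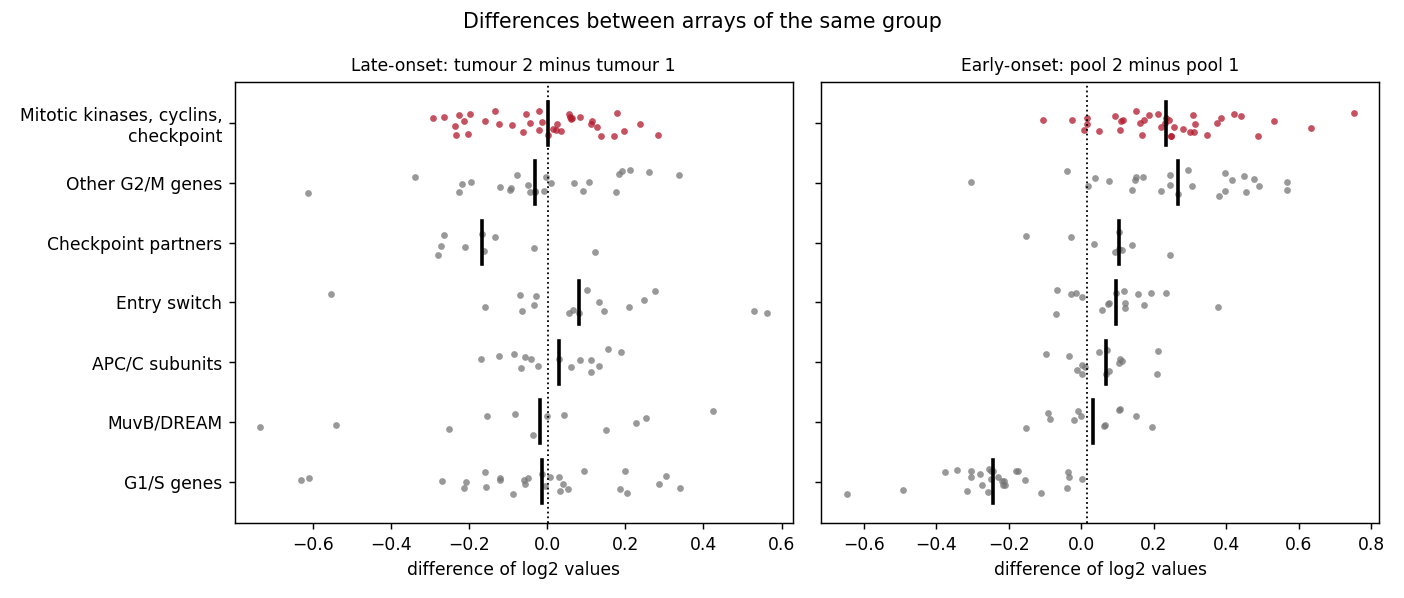
Difference in log2 value between the 2 arrays of a group for each gene, tumour 2 minus tumour 1 (left) and pool 2 minus pool 1 (right). Black bars are list medians and dotted lines the median of all genes. On the right the mitotic and other G2/M genes lie mostly above 0 (medians 0.23 and 0.27) and the G1/S genes below it (-0.24), while on the left all 3 lists centre near 0.

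Transcripts of some other cell types fell in late-onset cells, whereas the mitotic genes rose. Of 15 measured microglia and macrophage markers, 14 fell in late-onset cells, with Ly86 (-4.70), Itgam (-4.23), Csf1r (-4.11) and C1qb (-4.10) furthest. Their summed linear signal was 1939 and 2893 in the tumours, against 35488 and 30439 in the pools. Among all genes, 8.12% were called lower. Of 7 neuron markers 4 fell, Snap25 (-1.85), Syt1 (-1.14), Rbfox3 (-0.81) and Gad1 (-0.71), with sums of 859 and 1017 in the tumours, against 1755 and 2171 in the pools. Of 6 astrocyte markers 2 fell, Slc1a2 (-1.93) and Slc1a3 (-0.89), with sums of 2166 and 2821 in the tumours, against 5717 and 7282 in the pools. At an unadjusted p under 0.05 by limma, 6 of the 7 neuron and 5 of the 6 astrocyte markers were lower and none higher. Of all 19937 genes, 3067 were lower at that threshold. The median log2 fold change of the astrocyte markers was -1.45. None of the markers is at 0, since the deposited values have no zero. None of 6 endothelial and 6 lymphocyte markers was called, and none passed an unadjusted p under 0.05 by limma. The endothelial markers had a median log2 fold change of -0.44 but varied widely within groups. All 6 were higher in tumour 2 than in tumour 1 (median difference 0.98) and lower in pool 2 than in pool 1 (median -0.76). The lack of a call is therefore no evidence that they were unchanged. The nearest to a call were Kdr (-0.81) and Cldn5 (-0.55) among the endothelial ones and Cd3e (-0.19) and Nkg7 (0.27) among the lymphocyte ones. Between the pools, 13 of the 15 microglia and macrophage markers were lower in pool 2, while all 6 astrocyte and 6 of the 7 neuron markers were higher.

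The labels call the cells glioma cells, and 7 markers of oligodendrocyte progenitors, glial cells that divide in response to PDGF, summed to 33686 and 32063 in the tumours, against 40676 and 41897 in the pools. One of them, Pdgfra, fell (-0.45, adjusted p 0.041), where 8.12% of all genes were called lower. At an unadjusted p under 0.05 by limma, 3 of the 7 were lower and none higher, against 3067 lower of all 19937 genes. Centring each array on these 7 markers subtracts the same value from every gene of that array, so all fold changes moved up alike. All 37 mitotic genes were then called higher, at a median of 1.27. With that centring 4035 of all genes were called higher and 1067 lower, and the median of all genes moved to 0.24. The part of the other cell types in the rise of the mitotic genes was not tested. The centring cannot show it, since it shifts all genes alike.

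Fold changes were also set beside the promoter letters. The median log2 fold change was 1.03 in the 19 measured genes with TTTGAA (0.59 to 1.37) and 0.96 in the 12 without (0.30 to 1.80). It was 1.03 in the 23 with CCAAT and 0.97 in the 8 without. Among windows of other genes that rose in late-onset cells, 16.2% held TTTGAA and 7.67% held both motifs, against 14.9% and 5.79% of windows of genes that were not called and 12.3% and 4.05% of those that fell. These shares are descriptions, and no test was made of them.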

How the data were processed

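The authors deposited log2 probe set summaries for 34760 probe sets on 4 arrays. Per the submitters' processing notes, the tools were RMA and affy version 3.4.2; parameters and build are not given in the sources used here. RMA as usually run scales arrays to one distribution, and log2 summaries understate changes of dim genes. Array medians lay between 6.63 and 6.71, and the number of arrays limits the precision. Probe sets with 1 symbol in the platform annotation (21640) were kept. Those with several (1321) or none (11799) were left out. The probe set with the highest mean stood for each of 19937 genes, and genes were placed on chromosomes through RefSeq (GRCm38.p6).

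Late minus early differences were fitted by limma (version 3.58.1, under R 4.3.3; lmFit, eBayes), without further scaling, with Benjamini-Hochberg adjustment over all genes at 0.05. Residual degrees of freedom numbered 2, and eBayes added 3.27. The procedure was also run on simulated data with independent genes and variances drawn from the fitted prior. Such data cannot show how calls behave where many genes shift together in an array. The replicate numbers were not used in this fit. Genes and lists were chosen with earlier results of these data known. All measured members were named, and up to 4 called genes of every other list by absolute log2 fold change, or the 2 with the highest absolute moderated t where none was called. Older symbols were matched through RefSeq synonyms.

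Alternatives were other variance models, low-level filters, scalings, probe set averaging, array weights, a replicate block, a stricter threshold and each array left out; a lone array was then assumed to vary like the other group.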

Additional observations from a re-analysis of the deposited data

How the results depend on the processing

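The log2 fold changes of all 37 mitotic genes stayed above 0 in each of the 16 other settings tried, but many of these could not change a direction. The other variance models, level filters, array weights, block and stricter threshold left the fold changes as they were. Leaving out an array cannot reverse genes whose groups do not overlap, as was so for all 37. The number called higher, 34 in the reported fit, was 18 at an adjusted p under 0.01 (1.45% of all genes) and 13 to 29 with an array left out; in the other settings it ran from 32 to 37. None was called lower in any setting by limma. The median moved to 1.27 when arrays were centred on progenitor markers, an alternative chosen after seeing the data, and lay at 0.91 to 1.10 with an array left out. Over all genes, 1313 higher and 1618 lower calls became 2839 and 1210 after median subtraction, 4035 and 1067 after centring on progenitor markers, 290 and 534 at 0.01, and 291 to 1212 and 559 to 1365 with an array left out. With the replicate number as a block they were 744 and 1089, and 32 mitotic genes were called, with Ccnf (adjusted p 0.0563), Cdc25c (0.0584) and Espl1 (0.0593) lost and Cdc25b (0.048) gained. The labels pair no arrays by number, and the deviations of same-numbered arrays correlated at -0.04 over genes. Related lists under each setting were also added after seeing the data. At 0.01 their counts were 7 (other G2/M), 8 (G1/S), 3 (checkpoint partners), 2 (entry), 1 (APC/C) and 0 (MuvB, with 6 at an unadjusted p under 0.05). The block gave 5 entry and 2 APC/C genes. The MuvB count was 6 after median subtraction and 7 after centring on progenitor markers. With an array left out the ranges were 5 to 15, 4 to 20, 2 to 6, 1 to 8, 0 to 4 and 0 to 3, in the same order of lists. The cause of these changes was not tested, except that 0.01 is a stricter threshold and that leaving out an array leaves fewer arrays.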
